A study of Mus musculus with 6 samples.

Results

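AP-1 is a family of transcription factors that bind DNA as pairs of basic leucine zipper proteins. The 8 AP-1 genes examined here were Fos, Fosb, Fosl1 and Fosl2 of the Fos family, Jun, Junb and Jund of the Jun family, and Batf3, a related gene of the Batf family. The rule for membership names these genes and uses no measured value, and each was read in all 6 libraries. All 8 are among the 55291 genes listed in the count table, and all 8 are among the 14290 genes with enough counts to be tested.

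A Fos protein cannot pair with another Fos protein and needs a Jun partner, whereas Jun proteins also pair with each other. The Fos, Fosb, Jun and Junb genes are immediate early genes, which serum, growth factors and stress switch on within minutes through MAP kinases, whereas Fosl1 is induced later and depends in part on AP-1 itself. In fibroblasts AP-1 is known for driving growth, matrix proteases and stress responses, with Jund usually present also in resting cells and Batf3 best known from immune cells.

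The libraries came from wild type mouse embryonic fibroblasts (WT MEFs), a line that was obtained from another laboratory and grown in culture, with no gene deletion in any group. There were 2 libraries of cells given vehicle, 2 of cells given MASM7, a small molecule activator of the mitofusins that fuse mitochondria, at 1 μM for 6 h, and 2 of cells given MFI8, a small molecule inhibitor of mitofusins, at 20 μM for 6 h. For how long vehicle was applied is not stated in the sources used here, and because the compounds were used at different concentrations, compound and concentration cannot be told apart. The series describes the libraries of a group as independent biological replicates.

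Of 11 fibroblast markers, all had counts. They summed to between 8080 and 10340 CPM (counts scaled to library size) over the 6 libraries, with Col1a1 between 2036 and 2682 CPM, while Thy1 and Lum lay below 1 CPM in every library. The 4 epithelial markers summed to at most 0.879 CPM and the 3 endothelial markers to at most 0.596 CPM, with Kdr at 0. The 3 blood markers summed to between 3.11 and 4.30 CPM, nearly all of it Cd68, with Adgre1 at 0, and of the pluripotency genes Pou5f1 and Sox2 were at 0. The 3 neural markers, among them the intermediate filament gene Nes, summed to 430 and 443 CPM with vehicle, to 451 and 472 after MASM7 and to 455 and 493 after MFI8. The part of these neural genes in the AP-1 values was not tested. Depth lay between 22791792 and 30677751 counts per library, and was lowest in MFI8 replicate 1 and highest in MFI8 replicate 2. In such bulk libraries, fewer cells expressing a gene and less of its RNA per cell cannot be told apart.

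Because immediate early genes are switched on within minutes, the last 120 bases before the RefSeq start site are printed for the 4 immediate early members. RefSeq promoter windows were found for 7 of the 8 members, all but Fosl1, and of those 7 these are the 4 in which the RefSeq start lay within 30 bases of the start of the gene in GENCODE vM21. The build is GRCm38.p6, and the sequences run 5′ to 3′ on the strand of the gene. Capitals mark TGACG, the 5 bases that open the cAMP response element TGACGTCA, or TGACATCA, a variant of the same element.

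Fos promoter, chr12:85473770-85473889, plus strand: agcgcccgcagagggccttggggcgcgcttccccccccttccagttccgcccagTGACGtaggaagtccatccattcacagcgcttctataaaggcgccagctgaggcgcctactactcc

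Fosb promoter, chr7:19310046-19310165, minus strand: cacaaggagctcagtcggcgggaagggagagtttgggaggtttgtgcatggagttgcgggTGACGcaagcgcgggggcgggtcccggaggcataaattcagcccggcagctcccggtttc

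Jun promoter, chr4:95052223-95052342, minus strand: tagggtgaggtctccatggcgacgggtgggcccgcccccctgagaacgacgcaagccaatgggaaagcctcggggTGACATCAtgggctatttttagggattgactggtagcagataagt

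Junb promoter, chr8:84978749-84978868, minus strand: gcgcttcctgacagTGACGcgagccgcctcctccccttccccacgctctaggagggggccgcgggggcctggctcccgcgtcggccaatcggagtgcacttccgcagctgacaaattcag

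The letters TGACG stood at 66 to 62 bases before the start of Fos, at 60 to 56 before Fosb and at 106 to 102 before Junb, and TGACATCA stood at 45 to 38 bases before Jun. Searched on both strands, TGACG was in 11.7% and TGACATCA in 2.1% of the last 120 bases of all 32851 RefSeq windows. The AP-1 site TGANTCA (3.41% of all windows), the full element TGACGTCA (1.24%), which contains TGACG, and the CArG box bound by serum response factor (0.749%) were in none of the 7 members over these 120 bases. A match is a run of letters and not a measured binding site, and the absence of a match in so short a window says nothing of the factor.

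The members spanned a wide range of levels. Levels of different genes were compared on the authors' TPM scale (a share of transcripts), which corrects for gene length. Averaged over the 6 libraries, TPM was 437.7 for Fosl1, 309.4 for Jun, 145.2 for Jund, 137 for Junb, 69.3 for Fosl2, 2.72 for Fosb, 1.52 for Fos and 0.597 for Batf3. By mean TPM, Fosl1 ranked 326 and Jun 502 among all genes listed, and Fos ranked 12991. Fosl1 and Fosl2 thus had the highest TPM of the Fos family, and the immediate early Fos and Fosb were far lower in all 6 libraries.

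The order of the levels was the same in the 3 groups except for Jund and Junb. Their TPM values overlapped within each group, from 110 to 138 for Junb against 131 to 132 for Jund with vehicle, and their order by mean was reversed with MASM7. Fosb and Fos also overlapped with MFI8, where Fosb was 3.34 and 4.69 TPM and Fos 1.2 and 3.97 TPM, and Fos overlapped with Batf3 with vehicle. The other neighbours in the order did not overlap in any group. The lengths behind the TPM values are not given in the sources used here.

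The Fos family summed to 502.2 and 461.8 TPM with vehicle, 533.1 and 531.2 after MASM7 and 531.1 and 507.8 after MFI8. The Jun family summed to 581.3 and 497.2 TPM with vehicle, 563.8 and 568.2 after MASM7, and 628 and 711.4 after MFI8. Both MFI8 libraries were thus above all other libraries in summed Jun family TPM, whereas for the Fos family the 2 MFI8 libraries lay above those of vehicle and below those of MASM7. The ratio of Jun family to Fos family TPM was 1.16 and 1.08 with vehicle, 1.06 and 1.07 after MASM7 and 1.18 and 1.40 after MFI8. With 2 libraries against 2, an exact permutation test (two-sided) of such a ratio cannot give a p below 0.333, so none is given.

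**Figure D1:**
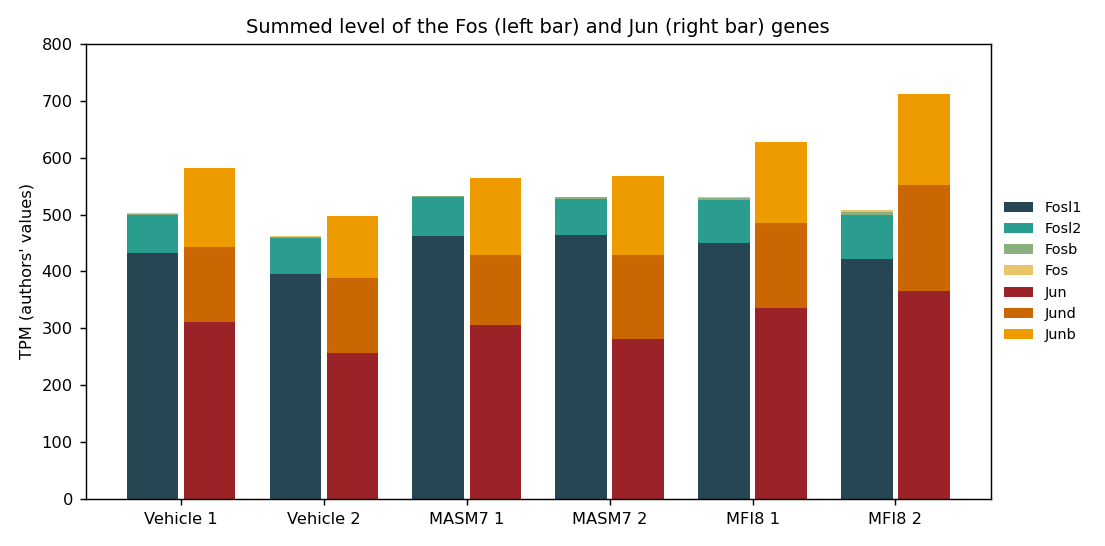
Summed TPM of the Fos family (left bar of each pair) and the Jun family (right bar) in each of the 6 libraries, stacked by gene. Fosl1 fills most of every Fos bar, and the Jun bars of the 2 MFI8 libraries are the tallest, at 628 and 711.4 TPM.

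Shares within each family were then compared. Fosl1 made up 86.2% and 85.6% of Fos family TPM with vehicle, 86.6% and 87.3% after MASM7, and 84.8% and 83.2% after MFI8. The share of Fosb was 0.349% and 0.437% with vehicle, 0.363% and 0.484% after MASM7 and 0.629% and 0.924% after MFI8, so that both MFI8 libraries lay above the rest. Jun made up between 49.4% and 54.4% of the Jun family in all 6 libraries, with no separation of the groups.

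Changes with MFI8 were examined first, gene by gene, on the CPM scale with TMM normalization. Across all genes, edgeR's quasi-likelihood test called 0 genes for MFI8 against vehicle at a Benjamini-Hochberg adjusted p of 0.05 (0% of those tested), and so 0 of the 8 members. DESeq2 called 49 genes (0.406%), of which 1 was a member, Fosb. At an unadjusted p under 0.05, edgeR gave 744 higher genes (5.21%) and 665 lower genes (4.65%). Batf3 could pass the filter on low counts only by being higher with vehicle, and is left out of the next counts. Of the other 7 members, 6 were higher and 0 lower at that level. In 6 of these 7, both MFI8 libraries were higher than both vehicle libraries, as was true of 20.9% of all genes, and 0 were lower in both (19.3% of all genes). The median log2 fold change was 0.27 over the 8 members, 0.28 without Batf3 and 0.0027 over all genes tested. Members vary together in a library, so these counts are not those of 8 independent genes. They were also examined with earlier results of these data known.

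The call changed when the replicate number of the labels was added to the model as a block, which compares libraries of the same number. With the replicate block, edgeR called 398 higher (2.79%) and 322 lower genes (2.25%) for MFI8 against vehicle. Among them were 6 members, all higher, namely Fosb (adjusted p = 6.7e-05), Jund (0.00222), Jun (0.00381), Fosl2 (0.00506), Junb (0.0352) and Fos (0.0359). Every member had a GC content (of the longest transcript) above the median of tested genes (49.5%), from 51.9% for Fos to 67.1% for Jund. With offsets for the GC content and length of each gene in the same fit, 586 genes passed. Among them were 4 of the 6 members, Fos (adjusted p = 0.0539) and Junb (0.128) being the exceptions. The log2 fold changes of these 4 were then 0.99 for Fosb, 0.25 for Jund, 0.22 for Jun and 0.14 for Fosl2. With the block alone they were 1.07, 0.33, 0.28 and 0.21. The block with the DESeq2 Wald test called 220 genes, of which 1 was a member, Fosl2 (adjusted p = 0.0091). Jun was at 0.265 and Junb at 0.472, and Fos, Fosb and Jund were given no adjusted p. The log2 fold changes of the members given below are those without the block.

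**Figure D2:**
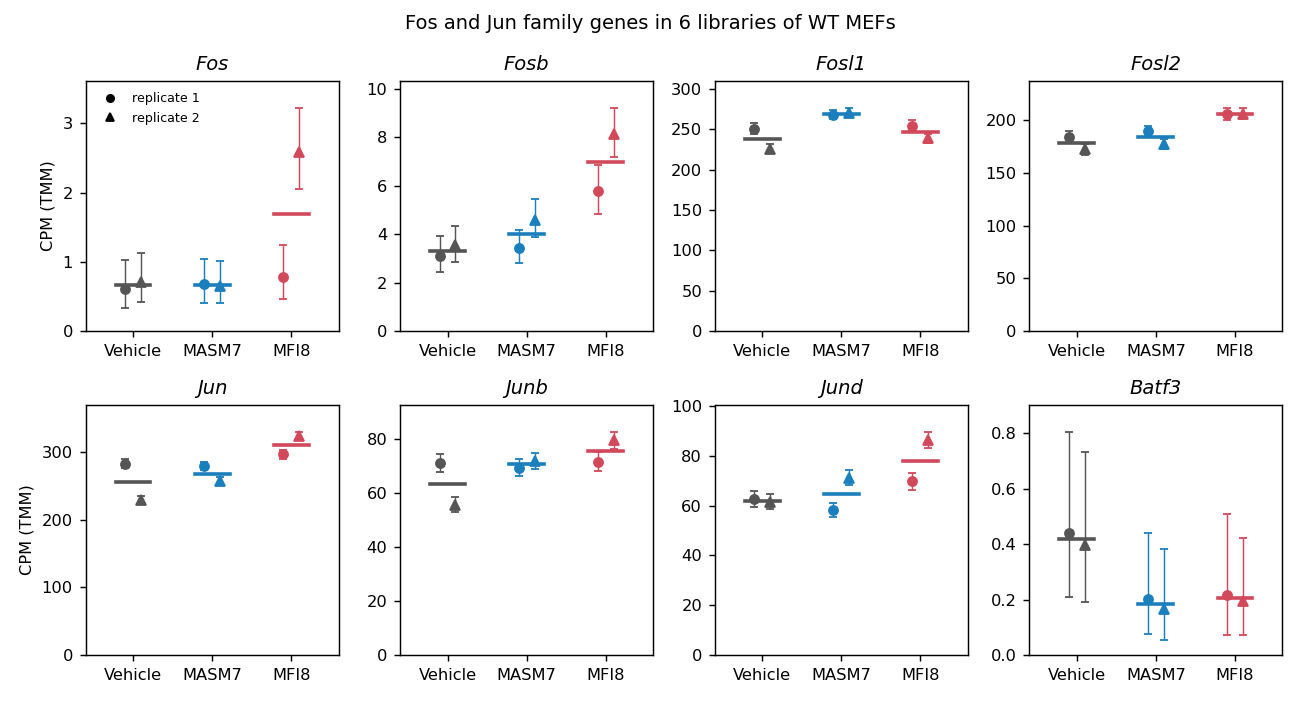
CPM of each member in the 2 libraries of each group (points, 1 panel per gene, y axis from 0), with bars for the exact Poisson 95% interval of the count. Fosb is highest in the 2 MFI8 libraries, at 5.79 and 8.13 CPM, and for Fos only MFI8 replicate 2, at 2.59 CPM, stands above the others.

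Fosb encodes a Fos protein that, as a full-length form, activates transcription. It lies on chromosome 7 of GRCm38 (19302696 to 19310051, minus strand). Its level was 3.11 and 3.54 CPM with vehicle, 3.45 and 4.60 after MASM7, and 5.79 and 8.13 after MFI8. The MFI8 libraries were both above all 4 others, and the lower of them was 1.64 times the higher vehicle library. The log2 fold change with MFI8 was 1.07 (SE, the standard error, 0.22, 95% interval 0.59 to 1.56, adjusted p = 0.216), the smallest p of the family and 40th of all genes. The log2 fold change was 1.29 without MFI8 replicate 1 and 0.80 without MFI8 replicate 2. In these fits the lone MFI8 library is assumed to vary like the other groups. Fosb passed with the replicate block and in the DESeq2 Wald test (adjusted p = 0.043). Over all alternatives its adjusted p lay between 1.7e-06 and 0.775, and its log2 fold change between 0.79 and 1.29.

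Fos, the founding member and the most transient of the immediate early genes, lies on chromosome 12 (85473890 to 85477273, plus strand). Vehicle libraries had 14 and 18 counts, MASM7 libraries 20 and 20, and MFI8 libraries 18 and 80, which correspond to 0.614, 0.716, 0.676, 0.657, 0.784 and 2.59 CPM. Thus 1 library, MFI8 replicate 2, stood apart from the other 5. Its 95% Poisson interval was 2.06 to 3.23 CPM, whereas that of MFI8 replicate 1 was 0.465 to 1.24 CPM and overlapped those of the vehicle libraries (intervals of single counts cover counting error only). The log2 fold change with MFI8 was 1.39 (SE 0.50, 95% interval 0.26 to 2.51, adjusted p = 0.425). It was 0.23 without MFI8 replicate 2 (adjusted p = 0.944) and 1.96 without MFI8 replicate 1 (adjusted p = 0.0534), and its adjusted p over all alternatives was between 0.0033 and 0.944.

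Fosl2 encodes Fra-2, a Fos-related protein without the strong activation domain of Fos, and lies on chromosome 5 (32135801 to 32157842, plus strand). Its level was 183.9 and 172.3 CPM with vehicle, 189.5 and 177.6 after MASM7, and 205.6 and 205.8 after MFI8. The 2 MFI8 libraries were nearly equal and above the other 4, with a log2 fold change of MFI8 over vehicle of 0.21 (SE 0.057, 95% interval 0.082 to 0.34, adjusted p = 0.356).

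Fosl1 encodes Fra-1, the Fos-related protein typical of growing and migrating cells, and lies on chromosome 19 (5447547 to 5455946, plus strand). Its level was 250.6 and 226 CPM with vehicle, 267.9 and 270.5 after MASM7, and 254.2 and 238.5 after MFI8. The MFI8 and vehicle libraries overlapped. MFI8 over vehicle gave a log2 fold change of 0.048, with a 95% interval of −0.090 to 0.19 (adjusted p = 0.834). Without vehicle replicate 2 the sign turned (−0.024).

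Jun encodes c-Jun, the main activating Jun protein, and lies on chromosome 4 (95049034 to 95052222, minus strand). Its level was 282.7 and 229.9 CPM with vehicle, 279.2 and 257 after MASM7 and 296.7 and 324.2 after MFI8. Both MFI8 libraries were the highest of the 6, but the 2 vehicle libraries differed from each other by more than vehicle replicate 1 differed from MFI8 replicate 1. For Jun, MFI8 over vehicle gave a log2 fold change of 0.28 (SE 0.091, 95% interval 0.074 to 0.48, adjusted p = 0.405). It was 0.14 without vehicle replicate 2 and 0.44 without vehicle replicate 1. Jun and Fos are also among the genes the study drew in its DNA damage panel from these same libraries, so that their direction there and here is not independent.

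Junb, whose protein can activate or restrain depending on its partner, lies on chromosome 8 (84974484 to 84978718, minus strand). Its level was 71.2 and 55.7 CPM with vehicle, 69.5 and 72.0 after MASM7 and 71.7 and 79.7 after MFI8. The groups with MFI8 and vehicle did not overlap, but MFI8 replicate 1 was only 1.01 times vehicle replicate 1, and vehicle replicate 2 was the lowest of the 6 libraries. The log2 fold change with MFI8 was 0.26 (SE 0.10, 95% interval 0.029 to 0.49, adjusted p = 0.451), and 0.091 without vehicle replicate 2 against 0.44 without vehicle replicate 1.

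Jund lies on the same chromosome (70698949 to 70700616, plus strand). Its level was 62.6 and 61.5 CPM with vehicle, 58.3 and 71.1 after MASM7, and 69.8 and 86.5 after MFI8. Both MFI8 libraries were above both vehicle libraries, but MFI8 replicate 1 was below MASM7 replicate 2. For Jund this gave a log2 fold change of 0.34 (SE 0.11, 95% interval 0.088 to 0.58, adjusted p = 0.409). It was 0.17 without MFI8 replicate 2 and 0.48 without MFI8 replicate 1.

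Batf3 lies on chromosome 1 (191097847 to 191108945, plus strand) and gave 10 counts in each vehicle library, 6 and 5 in those of MASM7 and 5 and 6 in those of MFI8. On the CPM scale these were 0.438 and 0.398, 0.203 and 0.164, and 0.218 and 0.194. The 2 vehicle libraries were the highest. Batf3 passed the filter on low counts through the vehicle libraries alone (0.364 CPM in 2 libraries was needed), so that it had to be lower with the compounds, and its values are given as a description. The fitted log2 fold change was −1.01 with MFI8 and −1.17 with MASM7.

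**Figure D3:**
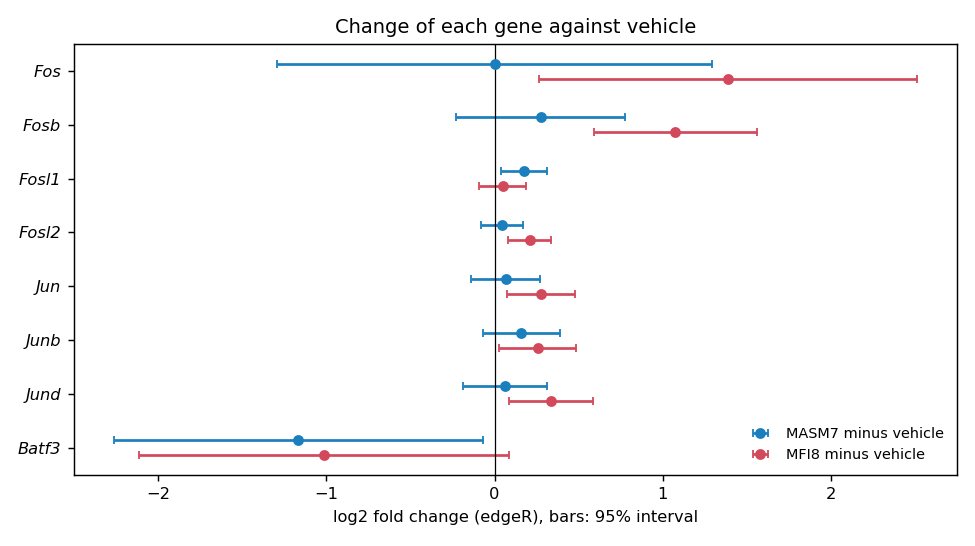
Log2 fold change of each member (x axis, edgeR fit of all 6 libraries) for MASM7 minus vehicle and MFI8 minus vehicle, with 95% intervals as bars. The MFI8 intervals of Fos, Fosb, Fosl2, Jun, Junb and Jund lie above 0 before adjustment for the number of genes tested, and Batf3 is lower with both compounds but entered the fit only through vehicle.

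The call depended on the settings. Over the alternative settings, the number of members past an adjusted p of 0.05 for MFI8 against vehicle ranged from 0 to 6. The highest was that with the replicate block, where 5.04% of all genes passed. With no filter on low counts beyond 1 count in any library, 256 genes (0.957%) and 5 members (Fos, Fosb, Jun, Junb and Jund) passed. With 1 library left out, the direction was kept in each case for every member other than Fosl1, while the size for Fos depended on MFI8 replicate 2. The plot shows this for the vehicle and MFI8 libraries and for the members other than Batf3.

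**Figure D4:**
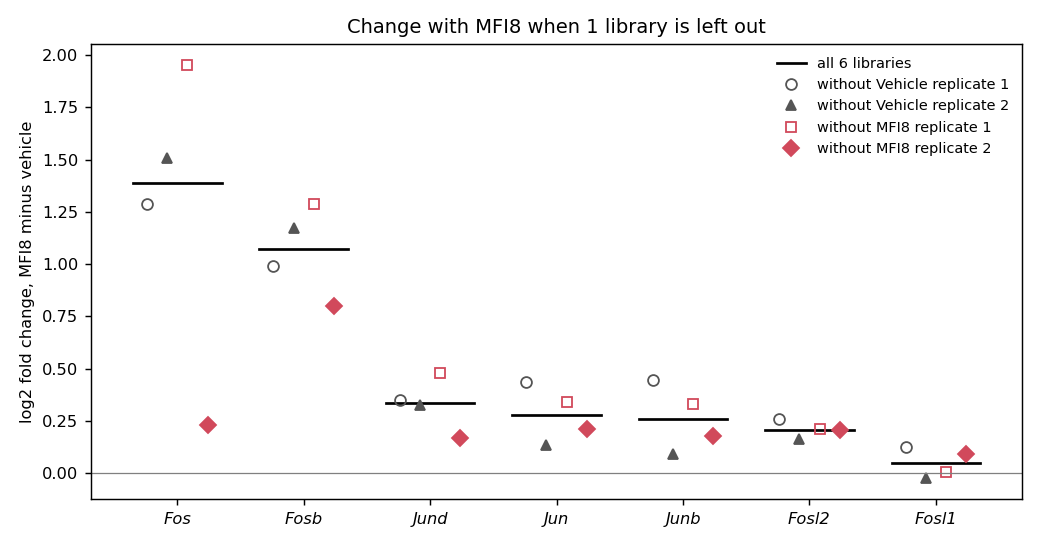
Log2 fold change of MFI8 minus vehicle (y axis) for each member other than Batf3, with all 6 libraries and with each vehicle or MFI8 library left out in turn. Fos moves between 0.23 and 1.96 as the MFI8 libraries are left out, while Fosb stays between 0.80 and 1.29.

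In GENCODE vM21, 4 members overlap other annotated genes. Junos is antisense to the start of Jun (192 to 272 counts per library), Gm11175 is antisense to Jund (8 to 19 counts), Prdx2 runs into the end of Junb (4369 to 6226 counts) and Ccdc85b overlaps Fosl1 (1209 to 1788 counts). The strand setting of the counting is not given in the sources used here, and reads from both strands cannot be told apart if no strand was used.

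For MASM7, the activator, the same test called 0 genes (0% of those tested), and 0 of the 8 members. DESeq2 called 2 genes (0.00747%) and none of the members. Of the 7 members other than Batf3, 1 was higher at an unadjusted p under 0.05 (5.32% of all genes were) and 0 lower (4.88%). In 1 of these 7 both MASM7 libraries were above both vehicle libraries, compared with 21.2% of all genes, and in 0 both were below (21.6%). The median log2 fold change was 0.063 over the 8 members, 0.065 without Batf3 and 0.00067 over all genes. With the replicate block 355 higher (2.48%) and 199 lower genes (1.39%) passed, and 1 member, Fosl1. The MASM7 and MFI8 comparisons share the vehicle libraries.

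The higher member was Fosl1, at 267.9 and 270.5 CPM with MASM7 against 250.6 and 226 with vehicle. Its log2 fold change was 0.18 (SE 0.062, 95% interval 0.039 to 0.31, adjusted p = 0.473), and the lower MASM7 library was 1.07 times the higher vehicle library. With the replicate block its adjusted p was 0.0269, but with GC and length offsets in the same fit the log2 fold change was 0.052 (adjusted p = 0.479). Without the block it was 0.10 without vehicle replicate 2 and 0.25 without vehicle replicate 1. Fosb gave 0.27 (SE 0.23, 95% interval −0.23 to 0.78, adjusted p = 0.674), with MASM7 replicate 1 between the 2 vehicle libraries, and the estimate was 0.051 without MASM7 replicate 2 and 0.47 without MASM7 replicate 1. For Fos the estimate was 0.00057, from 14 to 20 counts per library, and the 95% interval reached from −1.29 to 1.29, an interval that includes a change of the size estimated for Fosb with MFI8.

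Jun, Junb, Jund and Fosl2 overlapped between MASM7 and vehicle. Log2 fold changes were 0.065 for Jun (95% interval −0.14 to 0.27), 0.16 for Junb (−0.070 to 0.39), 0.061 for Jund (−0.19 to 0.31) and 0.044 for Fosl2 (−0.083 to 0.17). Each of these reversed in sign when at least 1 single library was left out.

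The compounds were then compared directly, at 20 μM MFI8 and 1 μM MASM7. The test called 0 genes (0%) and 0 members for MFI8 against MASM7, while DESeq2 called 29 genes (0.231%) and none of the members. At an unadjusted p under 0.05, 5 members were higher with MFI8 (4.23% of all genes were) and 0 were lower (2.95%). In 4 members both MFI8 libraries were above both MASM7 libraries (19.6% of all genes), namely Fos, Fosb, Fosl2 and Jun, and in 1, Fosl1, both were below (19.6%). The median log2 fold change was 0.19 over the members and −0.0015 over all genes.

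Fosb was higher with MFI8 than with MASM7 by 0.80 on the log2 scale (SE 0.21, 95% interval 0.34 to 1.26, adjusted p = 0.451), and Fos by 1.39 (SE 0.48, 95% interval 0.31 to 2.46, adjusted p = 0.617). Fosl1 was lower by a log2 fold change of −0.13 (95% interval −0.27 to 0.0091, adjusted p = 0.703). For Junb the log2 fold change was 0.099, with an interval of −0.13 to 0.32 that holds differences in either direction. With 1 library left out, Fosb lay between 0.52 (without MFI8 replicate 2) and 1.02 (without MASM7 replicate 2), and Junb between 0.019 (without MFI8 replicate 2) and 0.17 (without MFI8 replicate 1). With no filter on low counts, 168 genes (0.628%) and 2 members (Fos and Fosb) passed. Without MFI8 replicate 1, 0.159% of all genes and 1 member, Fos, passed (log2 fold change 1.96, adjusted p = 0.0452), again with a lone MFI8 library, whereas without MFI8 replicate 2 the log2 fold change of Fos was 0.23 (adjusted p = 0.994). The adjusted p of Fos over all alternatives was between 0.0028 and 0.9997. With the replicate block, 252 higher (1.76%) and 187 lower genes (1.31%) passed for MFI8 against MASM7, and 5 members, all higher, namely Fosb (adjusted p = 0.00167), Jund (0.0128), Fosl2 (0.0332), Jun (0.0359) and Fos (0.0404). The block with the DESeq2 Wald test called 110 genes and 0 members for this comparison. Fosl2 was at 0.149, Jund at 0.146 and Jun at 0.746, and Fos and Fosb were given no adjusted p.

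Across the 6 libraries, log2 CPM of Fosb followed that of Jund (Pearson's r = 0.938) and of Fos (r = 0.846), and Jun followed Fosl2 (r = 0.922) and Junb (r = 0.892). Fosl1 did not follow Fosb (r = −0.133) or Fos (r = −0.388). These values describe 6 libraries in 3 groups, share the depth and normalization of each library, and carry no p.

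Genes that varied most like Fos and Jun were sought among 677 genes with at least 5 CPM on average and a range of at least 0.5 in log2 CPM. For Fos these were Inpp4a (r = 0.961), Klf6 (r = 0.953), Stx3 (r = 0.952), Maff (r = 0.952) and Egr1 (r = 0.949). Egr1, itself an immediate early gene, was 62.2 and 63.8 CPM with vehicle, 48.3 and 55.6 after MASM7, and 72.7 and 141.4 after MFI8. That it too was highest in MFI8 replicate 2 follows from its choice by likeness to Fos. For Jun they were the metallothionein genes Mt1 (r = 0.987) and Mt2 (r = 0.939), and Zcwpw1 (r = 0.932), Cnnm4 (r = 0.919) and Cdsn (r = 0.919). Mt1 was 27.1 and 16.6 CPM with vehicle, 29.5 and 23.1 after MASM7 and 36.5 and 43.1 after MFI8, with vehicle replicate 2 lowest, as follows from its likeness to Jun.

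The genes around AP-1 were read in 4 lists written by hand. Of all genes tested, 50.7% were higher and 49.3% lower with MFI8, and 50.1% and 49.9% with MASM7. Of 14 other leucine zipper genes whose proteins can pair with Fos or Jun, 11 were tested for MFI8 against vehicle, 0 passed, and 8 were higher and 3 lower (median log2 fold change 0.17). At an unadjusted p under 0.05, 5 were higher and 2 lower, where 5.21% and 4.65% of all genes were. Under the replicate block 5 passed as higher and 2 as lower (2.79% and 2.25% of all genes), among them Atf3 (adjusted p = 7.6e-09), Mafg (0.000319), Jdp2 (0.00354), Atf4 (0.00279), Nfe2l2 (7.0e-05) and Maf (0.0278). Atf3, a stress-induced repressor or activator, was 2.24 and 3.06 CPM with vehicle, 2.47 and 3.65 after MASM7 and 6.75 and 20.9 after MFI8, and its log2 fold change was 2.40 (SE 0.46, adjusted p = 0.186). As for Fos, MFI8 replicate 2 was far above MFI8 replicate 1, and both were above all other libraries. Mafg (0.28, adjusted p = 0.189) and Jdp2, a repressor of AP-1 sites (0.34, adjusted p = 0.265), were also higher in both MFI8 libraries than in both vehicle libraries. Nfe2l2, which encodes the antioxidant regulator NRF2, was 103.6 and 92.8 CPM with vehicle and 78.6 and 75.5 with MFI8 (log2 fold change −0.35, adjusted p = 0.202). Lower estimates were also found for Maf (−0.27) and Atf2 (−0.063). With MASM7, 6 of the 11 were higher and 5 lower (median log2 fold change 0.078). The smallest p values belonged to Maf (−0.39), Jdp2 (0.18), Atf2 (−0.13) and Atf4 (0.13). Only Maf passed with the block (adjusted p = 0.00296), as lower, where 1.39% of all genes did.

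The 26 upstream genes encode MAP kinases, kinases that act before or after them, and transcription factors such as Srf, the Elk and Mef2 factors and Creb1. All were tested, and 13 were higher and 13 lower with MFI8 (median log2 fold change 0.0038, 0 passing). At an unadjusted p under 0.05, 2 were higher and 1 lower, shares near the 5.21% and 4.65% of all genes. Only Srf passed with the replicate block, for MFI8 (adjusted p = 0.00442) and for MASM7 (0.0218), where 2.79% and 2.48% of all genes passed as higher. Srf, the serum response factor that acts on immediate early promoters, was 81.3 and 84.7 CPM with vehicle, 88.6 and 105 after MASM7 and 96.9 and 101.8 after MFI8 (log2 fold change with MFI8 0.26, adjusted p = 0.384, and with MASM7 0.22, adjusted p = 0.473). Both compounds' libraries were thus above those of vehicle. The others named were Braf (0.14) and Map3k5 (0.46, unadjusted p = 0.195) among the higher, and Elk3 (−0.14) and Map3k7 (−0.11) among the lower. Map3k5 was 1.97 and 0.994 CPM with vehicle and 2.00 and 2.04 after MFI8. With MASM7, 13 were higher and 13 lower (median −0.0060), with Map2k3 at 0.13, Rps6ka3 at −0.15 and Mef2a at −0.15. These are RNA levels, and MAP kinase activity was not measured.

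Of 17 restraints of the pathway, such as MAP kinase phosphatases, 11 were higher and 6 lower with MFI8 (median log2 fold change 0.11, 0 passing), with 5 higher and 0 lower at an unadjusted p under 0.05 (5.21% and 4.65% of all genes). Of the 17, under the replicate block, 7 passed as higher and 0 as lower (2.79% and 2.25% of all genes). Among them were Dusp4 (adjusted p = 4.1e-05), Dusp1 (0.00736) and Crebbp (0.0214). For MASM7 1 passed as higher, Dusp4 (0.0327), where 2.48% of all genes did. Dusp1, an immediate early phosphatase of stress-activated kinases, was 14.7 and 15.1 CPM with vehicle, 12.0 and 12.4 after MASM7 and 16.4 and 25.4 after MFI8 (log2 fold change 0.50, adjusted p = 0.412). Both MFI8 libraries were above the other 4. Crebbp, whose acetyltransferase is also known as a coactivator of Fos and Jun proteins, does not fall under the name of the list, and without it 10 of 16 were higher and 6 lower, 4 were higher at an unadjusted p under 0.05 and 6 passed with the block. Dusp4 (0.56) and Crebbp (0.25) were the others with the smallest p, while Itch (−0.090), Hdac3 (−0.028) and Dusp6 (−0.044) were the lower genes with the smallest p. With MASM7, 10 were higher and 7 lower (median 0.0022), and the named ones were Crebbp (0.16), Dusp4 (0.31), Sirt1 (−0.21) and Dusp1 (−0.29).

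Of 30 known AP-1 target genes, 29 were tested, Il6 being the exception, and 15 were higher and 14 lower with MFI8 (median log2 fold change 0.0046, 0 passing), with 7 higher and 0 lower at an unadjusted p under 0.05 (5.21% and 4.65% of all genes). The split was 23 higher and 6 lower without vehicle replicate 1 (median 0.13), 12 and 17 without vehicle replicate 2, 24 and 5 without MFI8 replicate 2, and 11 and 18 without MFI8 replicate 1. The replicate block gave 8 that passed as higher and 3 as lower (2.79% and 2.25% of all genes). Among them were Hmox1 (adjusted p = 8.9e-11), Plaur (3.9e-05) and, lower, Ereg (0.0146). For MASM7 6 passed as higher and 0 as lower (2.48% and 1.39% of all genes), among them Plaur (0.0012), Hmox1 (0.017) and Ezr (0.0319). Hmox1, the haem oxygenase gene, was 35.03 and 41.4 CPM with vehicle, 44.9 and 54.3 after MASM7 and 68.5 and 120.5 after MFI8 (log2 fold change 1.31, SE 0.22, adjusted p = 0.0924). Both MFI8 libraries were above all others. Hmox1 is known at least as well as a target of NRF2. Plaur, the urokinase receptor gene, was 133.9 and 127.7 CPM with vehicle, 161.8 and 155.9 after MASM7 and 163.8 and 163.1 after MFI8. Against vehicle the log2 fold change was 0.32 with MFI8 (adjusted p = 0.0924) and 0.28 with MASM7 (adjusted p = 0.466), and the libraries of both compounds lay above those of vehicle. The matrix protease genes Mmp3 (−0.41) and Mmp10 (−0.46) and the growth factor gene Ereg (−0.29) were the lower genes with the smallest p. With MASM7, 21 targets were higher and 8 lower (median log2 fold change 0.071), where 50.1% and 49.9% of all genes were. At an unadjusted p under 0.05, 3 were higher and 0 lower (5.32% and 4.88% of all genes). The named ones were Ezr (0.19), Il11 (−0.39, unadjusted p = 0.272) and Ereg (−0.17, 0.330). This MASM7 median was 0.18 without vehicle replicate 1 and −0.055 without vehicle replicate 2.

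**Figure D5:**
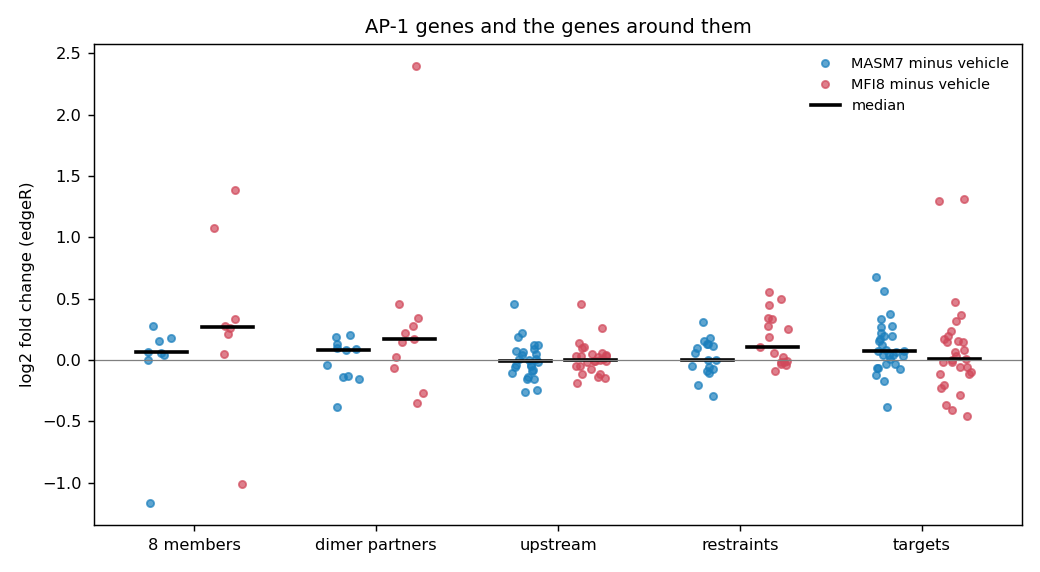
Log2 fold change (y axis, edgeR fit) of each tested gene in the 8 members and the 4 lists, for MASM7 and MFI8 against vehicle. The members and the dimer partners lie mostly above 0 with MFI8, with medians of 0.27 and 0.17, and the upstream and target lists spread around 0.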

How the data were processed

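RNA-seq libraries of WT MEFs were analysed in 3 groups of 2. The authors used Trimmomatic, STAR with mm10 (GRCm38) and featureCounts over exons, and deposited the raw count of each gene. They also deposited TPM values, used here for levels, and counts divided by size factors, which were not used. Annotation release, strand setting and the versions of Trimmomatic, STAR and featureCounts are not given in the sources used here.

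Counts of all 6 libraries entered a single edgeR model (edgeR 4.0.16, R 4.3.3) with TMM factors, filterByExpr and 1 coefficient per group. Genes were tested by quasi-likelihood, with p adjusted by Benjamini-Hochberg over the 14290 genes tested, at 0.05. Each SE is the log2 fold change, without its sign, over the square root of F. Log2 CPM added a prior count of 2. Alternatives were DESeq2 1.42.0 (Wald test or size factors), library size alone, other filters, only 2 groups, the replicate number as a block, limma 3.58.1 on log2(TPM + 1) or log2(TPM + 0.1), and leaving out each library. The pairing comes from the replicate numbers in the labels, which name no shared batch. Differences between replicates 2 and 1 correlated between groups in all 3 pairs of groups (r = 0.152 to 0.188 over all genes tested and 0.508 to 0.621 over the 7145 more highly expressed), and all 11 fibroblast markers were lower in replicate 2 of every group. Blocked values are therefore given beside results whose call they change. Offsets for GC content and length, and block combinations, were chosen after seeing the data.

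Members, lists and tests were chosen with earlier results of these data known. Genes of the lists were named by rule, up to 3 with the smallest p in each direction for MFI8 and up to 2 for MASM7. Of these, 2 genes are not reported here. The fitting step was tested on simulated data. Lists were described by counts and medians, with no set test.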

Additional observations from a re-analysis of the deposited data

How the results depend on the processing

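The number of genes past the threshold depended on the setting. In the order MFI8 against vehicle, MASM7 against vehicle and MFI8 against MASM7, where 0 passed, the number was 256, 127 and 168 without a filter on low counts, 49, 2 and 29 with DESeq2, 8, 14 and 13 with limma on log2(TPM + 1), and 19, 18 and 19 on log2(TPM + 0.1). With only the 2 groups compared it was 1 for MASM7 against vehicle and 2 for MFI8 against MASM7. Leaving out 1 library at a time gave 0 to 26, 0 to 2 and 0 to 24, with 26 and 24 without MFI8 replicate 1 and 6 without MFI8 replicate 2 for MFI8 against vehicle. Members past the threshold for MFI8 against vehicle numbered 5 without a filter and 1 with DESeq2, for MFI8 against MASM7 2 without a filter, and 0 to 1, 0 to 0 and 0 to 1 with 1 library left out. The cause was not tested.

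With the replicate number as a block, 720, 554 and 439 genes passed, and 6 members (Fos, Fosb, Fosl2, Jun, Junb and Jund, with adjusted p between 6.7e-05 and 0.0359), 1 (Fosl1, adjusted p = 0.0269) and 5 (Fos, Fosb, Fosl2, Jun and Jund). With the block, 2.79%, 2.48% and 1.76% of all genes passed as higher. Beyond these and the list genes given with it, the block changed no call against vehicle of a gene named from the lists. The block with GC and length offsets gave 586, 155 and 695 genes and 4, 0 and 5 members, and the block with DESeq2 220, 205 and 110 genes and 1, 1 and 0 members.

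Changes of sign were found for Fosl1 with MFI8 and for Fos, Fosl2, Jun, Junb and Jund with MASM7, and in no other member against vehicle. Fosl1 with MFI8 was −0.024 without vehicle replicate 2 and −0.019 with GC and length offsets, with and without the block. With MASM7, Fos was −0.010 with library size alone, −0.0053 and −0.0080 with limma, −0.044 with the offsets, −0.027 with the offsets and block, −0.10 without vehicle replicate 1, −0.019 without MASM7 replicate 1 and −0.00019 without MFI8 replicate 1, and at most 0.12 with a library left out. With MASM7, Fosl2 was −0.0022 without vehicle replicate 2, −0.0033 without MASM7 replicate 1, −0.0019 with the offsets and −0.0021 with the block added, and at most 0.091 with a library left out. Jun was −0.076 without vehicle replicate 2, −0.021 with the offsets and −0.020 with the block added, and 0.22 without vehicle replicate 1, while Junb was −0.0080 without vehicle replicate 2 and 0.34 without vehicle replicate 1. Jund was −0.089 without MASM7 replicate 2, 0.20 without MASM7 replicate 1 and −0.13 with the offsets, with and without the block.

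With 1 library left out, the median of the targets lay between −0.062 and 0.13 for MFI8 and between −0.055 and 0.18 for MASM7, that of the restraints between 0.10 and 0.18 and of the dimer partners between 0.11 and 0.26 for MFI8, that of the upstream genes between −0.031 and 0.029 for MFI8, and that of the dimer partners between −0.013 and 0.079 for MASM7, where it was −0.019 with the offsets, with and without the block. Depth limits Fos and Batf3, at 80 counts or fewer in each library.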
